A study of Homo sapiens with 4 samples.

Results

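Listed SCAN-domain genes outside the zinc finger clusters of chromosome 19, not the whole family, were compared between METTL16 KO and control Huh7 cells. They were chosen by symbol from a list of 38 genes, of which 37 were found among the 18806 symbols of the deposited expression table. ZSCAN12 was not matched and is not analysed here. Of the 37, 36 passed a minimum mean of 1 TPM (transcripts per 1000000, a share of the library's transcripts after division by transcript length) and were tested together with 11971 genes in all. ZSCAN10, a gene known from pluripotent cells, was below it and was listed at 0 and 0 TPM in sgNS against 0.04 and 0 TPM in METTL16 KO. ZNF444 was the listed gene that itself lies on chromosome 19. Huh7 is a line from a human hepatocellular carcinoma. A single Cas9-expressing clone was infected with a lentiviral guide, either non-targeting (sgNS, genotype given as WT) or against METTL16 (METTL16 KO, genotype given as METTL16 knockdown), and hygromycin B was used to select stable cells in both groups. RNA-seq gave 2 libraries of each group, 4 in all. The sample titles do not say whether the 2 METTL16 KO libraries share 1 guide. The study describes the libraries of a group as biological replicates. Whether they came from separately infected cultures is not stated, so the p-values measure the spread between these libraries.

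SCAN proteins are transcription factors that carry a leucine-rich SCAN domain near the amino terminus and, in most cases, an array of C2H2 zinc fingers that binds DNA. The SCAN domain pairs proteins with themselves or with one another, so that the set of partners a cell makes can decide which dimers form. Some members also carry a KRAB domain. In many zinc finger proteins that domain recruits the co-repressor TRIM28 and through it histone-modifying enzymes. Whether the KRAB domains of these members do so was not tested. METTL16, the gene targeted here, encodes an RNA methyltransferase that places N6-methyladenosine on U6 snRNA and on MAT2A mRNA.

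METTL16 itself was listed at 26.3 and 25.1 TPM in sgNS against 17.6 and 18.8 TPM in METTL16 KO, or 70.7% of the sgNS mean. These are RNA values and do not give the remaining protein, which the study assessed in Huh7 cells by Western blotting. The groups did not overlap, and the difference on the log2(TPM + 0.1) scale was -0.50 (standard error 0.062, adjusted p = 2.4e-05, limma with Benjamini-Hochberg adjustment). Between 11723 and 11768 genes reached 1 TPM in sgNS and between 12051 and 12074 in METTL16 KO. The median log2 fold change of all tested genes was 0.16, so a typical gene stood above zero before any list was considered, and the values of the SCAN-domain genes are given beside that shift. Of 12 hepatoma markers all 12 passed the minimum, 11 rose and APOB fell. AFP, the fetal albumin relative, went from 1737 and 1793 TPM to 10387 and 10197 TPM. Of 9 markers of blood, endothelial and stromal cells 3 passed the minimum, and the list summed to between 8.1 and 9.25 TPM in sgNS and between 6.97 and 8.4 TPM in METTL16 KO. PECAM1, with 5.14 and 4.74 TPM in sgNS against 3.09 and 2.70 TPM in METTL16 KO, was the highest of the list in sgNS. Of the 3 tested, PECAM1 and PDGFRB fell, with log2 fold changes of -0.75 and -0.67, and CD14 rose by 0.59. The CD14 values went from 1.21 and 0.91 TPM to 1.61 and 1.66 TPM, a rise that no longer passed after median-ratio scaling. Below the minimum, COL1A1 went from 0.10 and 0.14 TPM to 0.80 and 0.48 TPM. DCN had 0 TPM in each sgNS library against 0.05 and 0.02 TPM in METTL16 KO. Whether the shift in hepatoma markers has a part in the values of the SCAN-domain genes was not tested. Read counts cannot be had from TPM, which leaves the depth unknown, and in bulk RNA fewer cells of a kind and less RNA per cell cannot be told apart.

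Promoter sequence is shown for 5 members on which the results turn, namely ZSCAN25, ZSCAN32 and ZNF197, which had the largest rises among members with a window, ZNF444, the member that fell, and ZSCAN2, whose groups coincided. Each window runs from 250 bases before to 50 bases after a RefSeq transcription start (GRCh38.p14), 5′ to 3′ on the gene's strand. Capitals mark the core bound by ETS family factors, CCGGAAG, or the same letters read from the other strand. The windows are chr7:99616696-99616995 on the plus strand (ZSCAN25), chr16:3400955-3401254 on the minus strand (ZSCAN32), chr3:44624786-44625085 on the plus strand (ZNF197), chr19:56141037-56141336 on the plus strand (ZNF444) and chr15:84600759-84601058 on the plus strand (ZSCAN2).
ZSCAN25: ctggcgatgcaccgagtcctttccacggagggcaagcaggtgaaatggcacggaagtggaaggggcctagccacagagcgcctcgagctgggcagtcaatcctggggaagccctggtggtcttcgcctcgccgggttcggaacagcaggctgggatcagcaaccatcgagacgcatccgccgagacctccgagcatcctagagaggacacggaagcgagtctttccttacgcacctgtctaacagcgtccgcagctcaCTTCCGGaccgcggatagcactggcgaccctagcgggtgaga
ZSCAN32: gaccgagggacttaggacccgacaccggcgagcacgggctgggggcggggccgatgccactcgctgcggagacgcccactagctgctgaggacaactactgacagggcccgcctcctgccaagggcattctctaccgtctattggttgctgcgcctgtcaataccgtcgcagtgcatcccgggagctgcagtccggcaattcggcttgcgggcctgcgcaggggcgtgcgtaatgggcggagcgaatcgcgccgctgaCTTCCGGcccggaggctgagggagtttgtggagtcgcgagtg
ZNF197: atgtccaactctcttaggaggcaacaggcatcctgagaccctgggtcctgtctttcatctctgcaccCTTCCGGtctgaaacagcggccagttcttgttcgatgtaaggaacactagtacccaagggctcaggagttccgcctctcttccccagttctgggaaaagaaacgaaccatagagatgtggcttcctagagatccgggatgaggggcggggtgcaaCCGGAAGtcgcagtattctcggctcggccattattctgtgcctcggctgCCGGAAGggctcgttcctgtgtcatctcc
ZNF444: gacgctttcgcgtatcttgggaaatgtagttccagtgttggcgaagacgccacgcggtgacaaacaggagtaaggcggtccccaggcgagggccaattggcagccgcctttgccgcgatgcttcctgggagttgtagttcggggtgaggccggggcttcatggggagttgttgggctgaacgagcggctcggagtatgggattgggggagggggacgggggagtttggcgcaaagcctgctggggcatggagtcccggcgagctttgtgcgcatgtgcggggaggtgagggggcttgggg
ZSCAN2: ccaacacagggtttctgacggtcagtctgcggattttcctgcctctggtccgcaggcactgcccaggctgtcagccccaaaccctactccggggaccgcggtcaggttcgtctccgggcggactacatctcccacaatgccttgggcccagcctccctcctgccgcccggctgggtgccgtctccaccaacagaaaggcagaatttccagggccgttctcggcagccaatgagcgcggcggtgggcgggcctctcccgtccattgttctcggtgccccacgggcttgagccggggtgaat
The starts used for ZNF197 and ZNF444 lie inside the longer gene spans of GENCODE 44, which begin at 44584888 and 56132599. In ZSCAN25 and in ZSCAN32 the match lay on the reverse strand and began at base 9 counted from the first transcribed base. ZNF197 had 3 matches, which began at bases -183, -28 and 22 on the same count. The windows of ZNF444 and ZSCAN2 held none of these letters, and nothing about a factor follows from that.

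Windows were given for 30 of the 36 tested members, 42 windows in all, since some genes have several starts, and windows of neighbouring genes can share bases. The ETS core was present in 20 of the 42 (47.6%), against 16.8% of the 13632 windows of all tested genes and 34.4% of the 465 windows of other zinc finger genes. Counted by gene it was present in 19 of the 30 members, 14 of the 21 that rose and 5 of the other 9. The median GC content was 62.5% in member windows, against 64.7% in all and 61.7% in windows of other zinc finger genes. GGGCGG, the core of SP and KLF sites, was present in 52.4% of member windows, 65.6% of all and 62.6% of other zinc finger windows. CCAAT was present in 40.5%, 35.0% and 43.7% in the same order. TATAAA was present in 0 of 42 member windows, in 6.35% of all and in 4.30% of other zinc finger windows. AAGATGGCG (YY1) and TGACGTCA (CRE) were present in 0 member windows, against 3.46% and 2.78% of all, and GCGCATGC (NRF1) in 1 of 42 (2.38%) against 4.71%. All motifs were searched on both strands, matches of different motifs may overlap, and the motifs were chosen after the expression values were known. A match is a description of the letters and not a bound site.

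Most of the listed SCAN-domain genes were higher in METTL16 KO. Of the 36 tested members 24 rose and 1, ZNF444, fell at an adjusted p under 0.05 (limma with Benjamini-Hochberg adjustment over all tested genes), and 11 passed in neither direction. Among all tested genes, 50.1% rose and 25.6% fell by the same rule, so the members' 66.7% and 2.78% are to be read against a background that was already tilted upward. The median log2 fold change of the members was 0.42, against 0.16 for all tested genes, and 34 of the 36 values were above zero. After median-ratio scaling, which centres the typical gene near zero, 21 members rose and 3 fell (58.3% and 8.33%, against 36.4% and 36.5% of all tested genes), and their median was 0.26 against -0.0016. After quantile normalization 18 rose and 3 fell (50% and 8.33%, against 36.9% and 35.5%), and the median was 0.21. The members' median stayed above that of all tested genes under each scaling, while their share of rises moved from 66.7% to 50%. No random or matched list was drawn, so no test stands behind the distance between the members and the other genes.

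The changes were moderate in size. By a stricter rule, with p under 0.01 before adjustment and a change of 1 or more log2 units in either direction, limma called 0 of the 36 members, against 11.4% of all tested genes. At an unadjusted p under 0.05 with no fold minimum it called 24 higher and 1 lower. The share of all tested genes by that rule is not given here, so these counts are not set against a background. Both METTL16 KO libraries lay above both sgNS libraries for 27 members (75.0%, against 56.8% of all tested genes) and below them for 2 (5.56%, against 30.7%), and the groups overlapped for 7. Summed over the listed genes, the level was 662 and 637 TPM in sgNS against 797 and 800 TPM in METTL16 KO, a log2 ratio of 0.30. Without ZNF444, the most abundant member in sgNS, the sums were 526 and 519 TPM and 708 and 707 TPM, a log2 ratio of 0.44. An exact two-sided permutation test of 2 libraries against 2 cannot give a p under 0.33. The calls are those of limma, which draws on the spread of all genes.

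**Figure D1:**
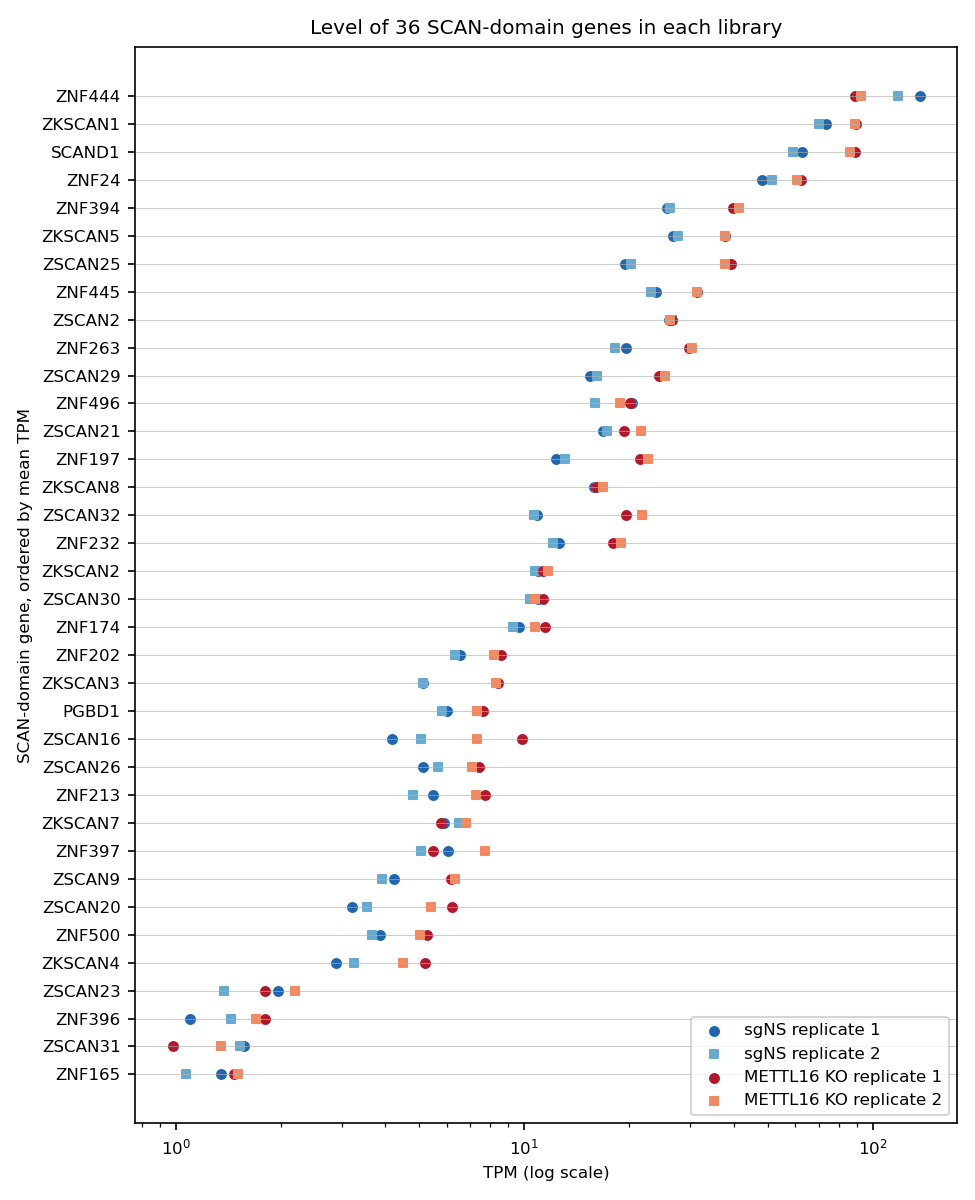
Level of each of the 36 tested SCAN-domain genes in each of the 4 libraries, as TPM on a log axis. Genes are ordered by mean level, circles are replicate 1 and squares replicate 2, with sgNS in blue and METTL16 KO in red, and at the top the METTL16 KO libraries of ZNF444 (89.0 and 92.4 TPM) lie below its sgNS libraries (136 and 118 TPM).

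The largest rise was that of ZSCAN25, a SCAN and zinc finger gene on the plus strand of chromosome 7 from 99616946 to 99632408. It had values of 19.4 and 20.2 TPM in sgNS against 39.1 and 37.6 TPM in METTL16 KO, which is 0.95 in log2 units (standard error 0.056, adjusted p = 7.0e-08, limma with Benjamini-Hochberg adjustment). ZSCAN32, on the minus strand of chromosome 16 from 3382081 to 3401065, had values of 10.9 and 10.7 TPM in sgNS against 19.6 and 21.7 TPM in METTL16 KO, which is 0.93 in log2 units (standard error 0.072, adjusted p = 6.5e-07, same test). In both genes the METTL16 KO level was close to 1.9 times that of sgNS, at 1.94 and 1.92 times, and the libraries of each group lay near each other. ZSCAN16 had the third largest rise, with a wider spread. Its values were 4.17 and 5.05 TPM in sgNS against 9.83 and 7.34 TPM in METTL16 KO, which is 0.87 in log2 units (standard error 0.14, adjusted p = 1.9e-04, same test). ZSCAN20, of chromosome 1, was at 3.21 and 3.54 TPM and then at 6.21 and 5.42 TPM, which is 0.77 in log2 units (standard error 0.12, adjusted p = 1.5e-04, same test). All METTL16 KO libraries of these 4 genes were above all sgNS libraries.

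Among the 19 tested members with SCAN and zinc fingers and no KRAB domain, 11 rose and ZNF444 fell (median 0.30 in log2 units). After median-ratio scaling 9 rose and 3 fell, with a median of 0.14. After quantile normalization 8 rose and 3 fell, with a median of 0.075. Of all tested genes 50.1% rose and 25.6% fell before scaling. The shares were 36.4% and 36.5% after median-ratio scaling and 36.9% and 35.5% after quantile normalization. ZSCAN29 rose from 15.46 and 16.14 TPM to 24.3 and 25.4 TPM (log2 fold change 0.65). ZSCAN9, ZNF232 and ZSCAN26 rose by log2 fold changes of 0.60, 0.57 and 0.42. ZNF24, a factor reported to repress VEGFA transcription, was abundant in every library. It was at 48.1 and 51.3 TPM in sgNS against 62.1 and 60.5 TPM in METTL16 KO (log2 fold change 0.30, standard error 0.049, adjusted p = 1.8e-04, limma with Benjamini-Hochberg adjustment). The remaining 2 rises depended on the scaling, and that of ZSCAN26 no longer passed after quantile normalization. ZSCAN21, a SCAN and zinc finger gene of chromosome 7, was at 16.8 and 17.3 TPM in sgNS against 19.4 and 21.7 TPM in METTL16 KO, with a log2 fold change of 0.26. That is 0.10 under median-ratio scaling, where it no longer passed, and 0.18 without METTL16 KO replicate 2, where it no longer passed either. ZNF174, a zinc finger repressor, was at 9.65 and 9.26 TPM and then at 11.5 and 10.7 TPM, with a log2 fold change of 0.23, and it no longer passed under either scaling, without sgNS replicate 2 (0.20) or without METTL16 KO replicate 1 (0.18).

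ZNF444, which is reported to bind the promoter of the scavenger receptor gene SCARF1, was the exception in direction. It had values of 136 and 118 TPM in sgNS against 89.0 and 92.4 TPM in METTL16 KO, which is -0.49 in log2 units (standard error 0.059, adjusted p = 2.2e-05, limma with Benjamini-Hochberg adjustment). The sgNS libraries differed from each other by more than the METTL16 KO libraries did, at 127 ± 12.8 TPM and 90.7 ± 2.40 TPM (SD, n = 2), and the groups did not overlap. Its fall held under both scalings, at -0.65 with median ratios. ZSCAN31 was the other member with both METTL16 KO libraries below both sgNS libraries. Its level was low, at 1.57 and 1.53 TPM in sgNS against 0.98 and 1.35 TPM in METTL16 KO, and its log2 fold change of -0.40 (standard error 0.22) did not pass the test. It passed under median-ratio scaling at -0.55, under quantile normalization, and without METTL16 KO replicate 2 at -0.61.

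ZSCAN2 had nearly the same values in both groups. It was at 26.1 and 26.6 TPM in sgNS against 26.6 and 26.2 TPM in METTL16 KO, which is 0.0019 in log2 units (standard error 0.054). Set against the typical gene it was lower, at -0.16 after median-ratio scaling and -0.17 after quantile normalization, and under both it passed the test downward. ZSCAN30 was at 10.9 and 10.4 TPM and then at 11.4 and 10.7 TPM, with overlapping groups. ZSCAN23 was at 1.97 and 1.38 TPM in sgNS against 1.80 and 2.2 TPM in METTL16 KO, and ZNF165 at 1.35 and 1.07 TPM against 1.47 and 1.51 TPM. ZSCAN23, ZNF165 and ZNF396 had log2 fold changes of 0.26, 0.29 and 0.45, with standard errors near 0.21, and did not pass. For ZNF396 the values were 1.10 and 1.44 TPM in sgNS against 1.81 and 1.70 TPM in METTL16 KO, and it passed without sgNS replicate 2, at 0.63. ZNF397 could not be placed, since 1 METTL16 KO library was between the sgNS libraries and the other above them (5.48 and 7.72 TPM, against 6.05 and 5.07 TPM). Its log2 fold change was 0.23 with all libraries, 0.47 without METTL16 KO replicate 1, where it passed, and -0.015 without METTL16 KO replicate 2.

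All 15 members that combine SCAN, KRAB and zinc fingers were tested, and 11 rose and 0 fell by the limma test at an adjusted p under 0.05. Their median log2 fold change was 0.45, with a range from 0.019 to 0.79, and under median-ratio scaling 11 still rose and 0 fell, with a median of 0.28. Under quantile normalization 9 rose and 0 fell. Beside these counts, 50.1% of all tested genes rose and 25.6% fell before scaling. The shares were 36.4% and 36.5% under median-ratio scaling and 36.9% and 35.5% under quantile normalization. ZNF197, whose product is known to interact with the von Hippel-Lindau protein, led the class. It was at 12.3 and 13.1 TPM in sgNS against 21.6 and 22.7 TPM in METTL16 KO, which is 0.79 in log2 units (standard error 0.067, adjusted p = 1.1e-06, limma with Benjamini-Hochberg adjustment). ZKSCAN3, known as a repressor of autophagy and lysosome genes, was at 5.13 TPM in both sgNS libraries against 8.40 and 8.31 TPM in METTL16 KO, which is 0.69 in log2 units (standard error 0.090, adjusted p = 3.6e-05, same test). ZNF263 rose from 19.6 and 18.2 TPM to 29.7 and 30.3 TPM (log2 fold change 0.66). These 3 genes had no overlap between groups and kept their calls under both scalings.

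The other rises of the KRAB class were smaller or at low levels. ZNF394, reported to repress AP-1 reporter activity, was at 25.6 and 26.2 TPM in sgNS against 39.9 and 41.4 TPM in METTL16 KO (log2 fold change 0.65). ZKSCAN4, at 2.89 and 3.24 TPM in sgNS against 5.18 and 4.48 TPM in METTL16 KO, had a log2 fold change of 0.64 and the lowest level of the class. ZNF213, ZKSCAN5 and ZNF500 rose by 0.54, 0.47 and 0.45. ZNF445, a guardian of imprinted methylation, was at 23.9 and 23.2 TPM in sgNS against 31.4 TPM in both METTL16 KO libraries (log2 fold change 0.42, standard error 0.054, adjusted p = 3.4e-05, limma with Benjamini-Hochberg adjustment). ZNF202, known as a repressor of lipoprotein genes, was at 6.53 and 6.33 TPM and then at 8.57 and 8.19 TPM (log2 fold change 0.38). ZKSCAN1, whose locus is a known source of a circular RNA in liver cells, was the most abundant of the class at 73.4 and 70.2 TPM in sgNS against 89.5 and 88.8 TPM in METTL16 KO (log2 fold change 0.31). The files hold gene values, so circular and linear transcripts of ZKSCAN1 were not separated. ZNF202 and ZNF500 no longer passed after quantile normalization.

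Of the KRAB class 4 members did not pass. ZKSCAN8 was at 15.87 and 16.13 TPM in sgNS against 16.12 and 16.86 TPM in METTL16 KO. ZKSCAN7 was at 5.90 and 6.51 TPM in sgNS against 5.79 and 6.81 TPM in METTL16 KO. ZKSCAN2 was at 10.9 and 10.8 TPM in sgNS against 11.3 and 11.7 TPM in METTL16 KO. Their log2 fold changes were 0.043, 0.019 and 0.085, and all 3 were below zero after either scaling without passing. ZNF496, whose product binds the histone methyltransferase NSD1, was at 20.4 and 15.9 TPM in sgNS against 20.1 and 18.8 TPM in METTL16 KO. Its sgNS libraries lay on both sides of the METTL16 KO libraries, and its log2 fold change of 0.11 became 0.29 without sgNS replicate 1, where it passed, and -0.067 without sgNS replicate 2.

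SCAND1 and PGBD1 carry a SCAN domain and no zinc fingers. SCAND1 is little more than the dimerization domain, and PGBD1 joins it to a sequence derived from a piggyBac transposase. SCAND1 was the third most abundant member in METTL16 KO, after ZNF444 and ZKSCAN1, although the libraries of these 3 genes overlap in level there. It had values of 62.6 and 59.0 TPM in sgNS against 89.2 and 85.9 TPM in METTL16 KO, which is 0.53 in log2 units (standard error 0.046, adjusted p = 1.6e-06, limma with Benjamini-Hochberg adjustment). PGBD1 was at 6.01 and 5.80 TPM in sgNS against 7.63 and 7.30 TPM in METTL16 KO, which is 0.33 in log2 units (standard error 0.091, adjusted p = 0.0064, same test). SCAND1 kept its call under both scalings. PGBD1 lost it under both, and also without METTL16 KO replicate 1, where its log2 fold change was 0.30.

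**Figure D2:**
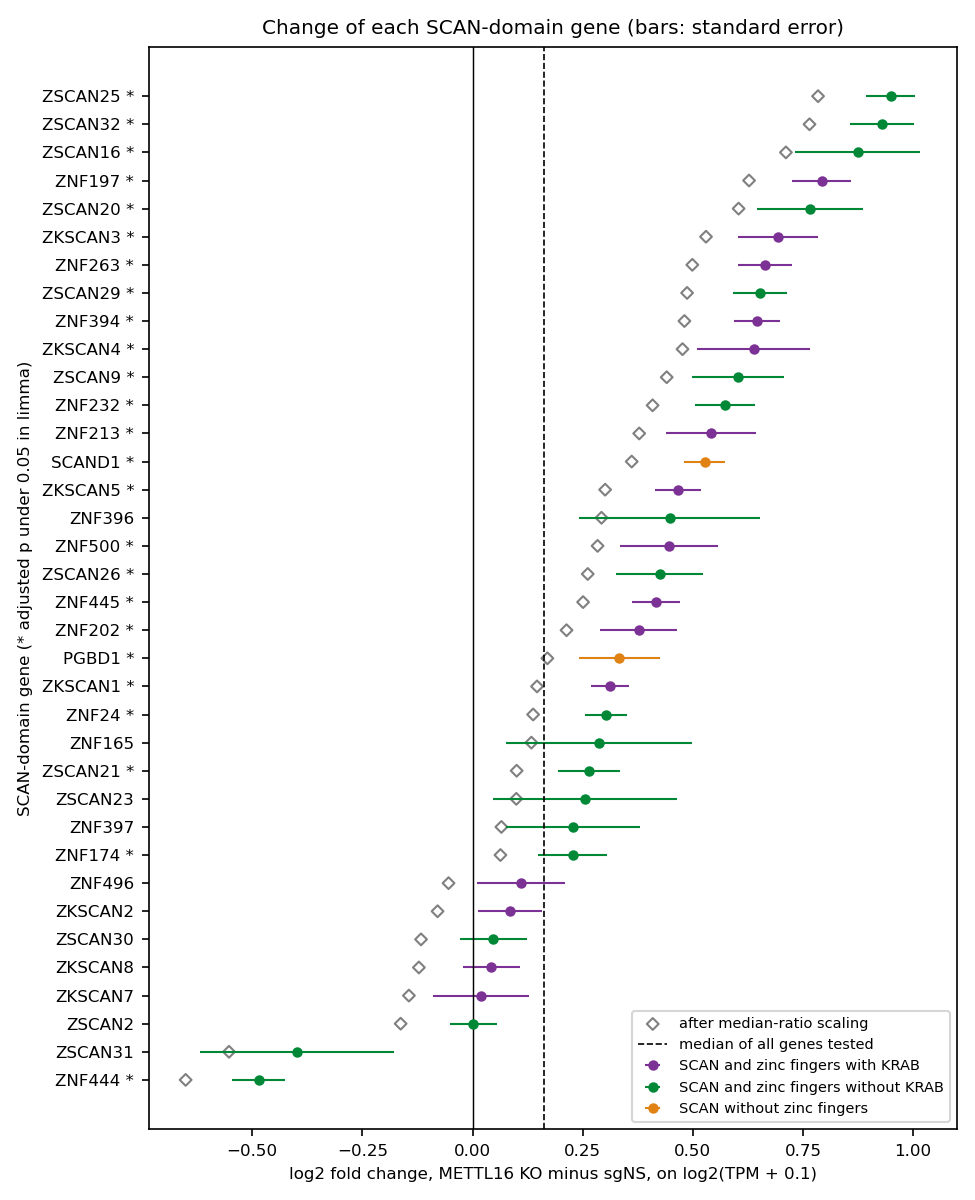
Log2 fold change (METTL16 KO minus sgNS, log2(TPM + 0.1) scale) of the 36 tested SCAN-domain genes, with limma's standard error as bars, colours for the 3 classes, grey diamonds for values after median-ratio scaling and a dashed line at the median of all tested genes. The values run from -0.49 for ZNF444 to 0.95 for ZSCAN25, and after median-ratio scaling 6 genes with values near zero change sign.

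Most members sit close to other members on the chromosome. With gaps of at most 2 Mb (GENCODE 44 positions on GRCh38), 29 of the 38 listed genes formed 5 groups and 9 lay alone. In the chromosome 7 group, from 99473877 to 100065040, all 5 members (ZNF394, ZKSCAN5, ZSCAN25, ZKSCAN1 and ZSCAN21) rose (median 0.47 in log2 units). Of the 34 tested genes around them that are not members, 23 rose and 7 fell, with a median of 0.19. In the chromosome 16 group, from 3088890 to 4767624, all 5 tested members (ZNF213, ZNF263, ZSCAN32, ZNF174 and ZNF500) rose, with a median of 0.54. Their 43 tested neighbours had 25 rises and 6 falls and a median of 0.26. After median-ratio scaling 4 members of each of these groups still rose, while the neighbours had 12 rises and 9 falls on chromosome 7 and 18 rises and 12 falls on chromosome 16. In the chromosome 3 group, from 44431705 to 44648471, ZNF445 and ZNF197 rose and ZKSCAN7 did not pass. The members' median of 0.42 was close to the 0.43 of the 9 neighbours. Those neighbours include the zinc finger genes ZNF852, ZNF35, ZNF501 and ZNF660, at 1.11, 0.82, 0.54 and 0.43. The other neighbours were TCAIM at 0.77, KIF15 at 0.20, TMEM42 at 0.022, KIAA1143 at -0.069 and ZDHHC3 at -0.41. In the chromosome 18 group, from 35241030 to 35377337, ZNF24 alone of 4 members rose, with a median of 0.27 against -0.12 for 4 neighbours. These counts are descriptions, since genes of a neighbourhood are not independent. They stand beside 50.1% rises and 25.6% falls among all tested genes, and 36.4% and 36.5% after median-ratio scaling.

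The chromosome 6 group, from 28080568 to 28443502, lies next to the large histone gene cluster. Of its 10 tested members 6 rose (ZSCAN16, ZKSCAN3, ZKSCAN4, ZSCAN9, ZSCAN26 and PGBD1) and 0 fell in the limma test (median 0.38 in log2 units). The 15 tested histone genes within the widened window went the other way, with 14 falls and 0 rises and a median of -0.71. After median-ratio scaling the group had 5 rises and 1 fall, that of ZSCAN31, and the histone genes still had 14 falls. Of all tested genes 50.1% rose and 25.6% fell before this scaling, and 36.4% and 36.5% after it. The tested neighbour that is neither a member nor a histone gene was ZBED9, a transposase-derived gene that also carries a SCAN domain and was not on the list; it is named after its values were seen. It was at 3.90 and 3.67 TPM in sgNS against 10.8 and 9.71 TPM in METTL16 KO, which is 1.41 in log2 units (adjusted p = 2.9e-07, limma with Benjamini-Hochberg adjustment). Replication-dependent histone mRNAs end in a stem-loop and lack a poly(A) tail, and the labels name both ribosomal depletion and a kit for mRNA, so how well they were captured cannot be told from these files.

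**Figure D3:**
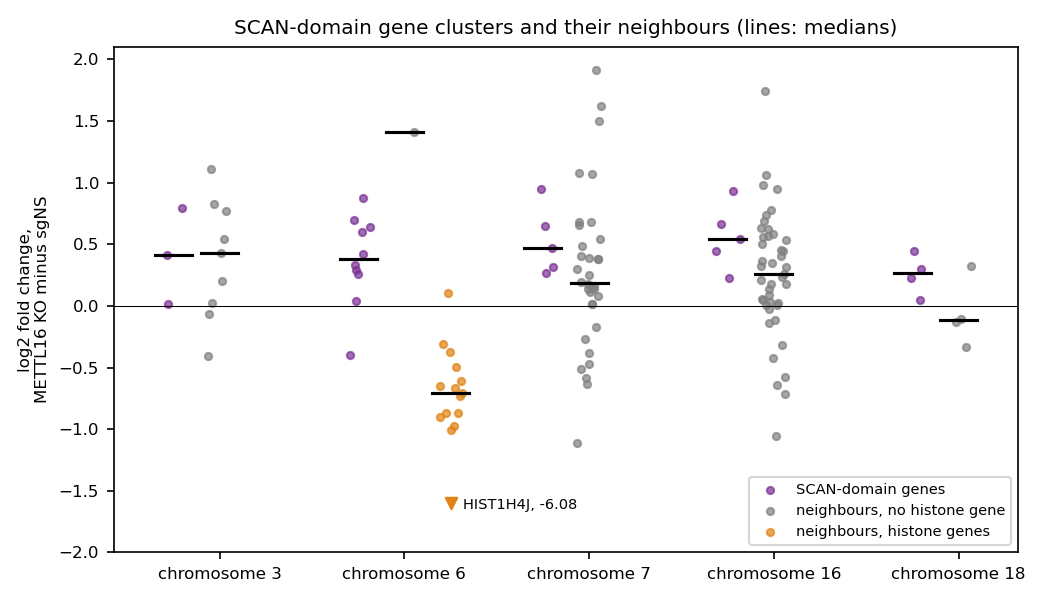
Log2 fold change (METTL16 KO minus sgNS) of tested SCAN-domain genes and of their tested neighbours in the 5 chromosomal groups, with a line at each median and histone neighbours in their own colour. On chromosome 6 the members' median is 0.38 and that of the histone genes -0.71, and the triangle marks HIST1H4J, which lies outside the axis at -6.08.

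Adjacent members did not always move together. ZSCAN32 and ZNF174 are transcribed away from each other from gene starts 150 bases apart in GENCODE 44. The promoter windows were set by RefSeq starts, of which that of ZSCAN32 differs from its GENCODE start. The windows share 290 of 300 bases, so the ZSCAN32 sequence printed above is nearly the whole window of ZNF174 on the opposite strand. The ratio of ZSCAN32 to ZNF174 was 1.13 and 1.15 in sgNS and 1.71 and 2.03 in METTL16 KO. ZNF394 and ZKSCAN5, also divergent, with 5′ ends that overlap by 196 bases, had a ratio of 0.959 and 0.947 in sgNS and of 1.06 and 1.10 in METTL16 KO, and both genes rose. ZKSCAN3 and ZSCAN31 overlap by 6325 bases on opposite strands, and their ratio was 3.27 and 3.35 in sgNS and 8.57 and 6.16 in METTL16 KO. ZNF197 and ZKSCAN7 overlap on the same strand, and their ratio was 2.09 and 2.02 in sgNS and 3.72 and 3.33 in METTL16 KO. These 4 ratios were higher in both METTL16 KO libraries than in both sgNS libraries. That of ZNF397 to ZSCAN30, at 0.553 and 0.487 in sgNS and 0.483 and 0.719 in METTL16 KO, overlapped. The gene with the larger change was taken as numerator, so the direction of a ratio follows from that choice, and no exact permutation p under 0.33 is possible.

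**Figure D4:**
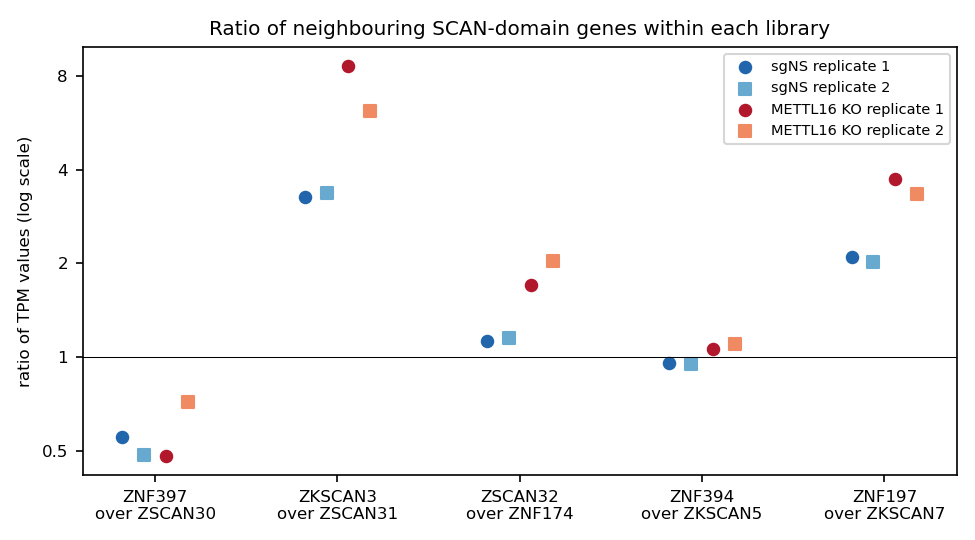
Ratio of TPM values in each of the 4 libraries for 5 pairs of neighbouring or overlapping SCAN-domain genes, on a log axis, with sgNS in blue and METTL16 KO in red. The ratio of ZSCAN32 to ZNF174 is 1.13 and 1.15 in sgNS against 1.71 and 2.03 in METTL16 KO, and that of ZNF397 to ZSCAN30 overlaps between groups.

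Gene overlap bears on some of these values. In the annotation 14 of the listed genes overlap a named coding gene. The canonical transcript of ZSCAN21 shares 44.1% of its length with ZNF3 on the opposite strand, that of ZNF500 11.6% with DNAAF8 and that of ZSCAN30 3.78% with ZNF397. ZNF263 shares 49.9% and ZSCAN26 10.2% of its transcript with unnamed gene models on the same strand. The kit marks strand, but whether reads were assigned by strand is not stated, and values of these members are uncertain to the extent that reads were split between overlapping genes. ZKSCAN3, ZSCAN31, ZNF197 and ZKSCAN7 overlap in their gene spans, but their canonical transcripts shared 0% of their length with other genes on either strand by the same search.

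Zinc finger genes outside the list were also higher at the median. Of 216 other zinc finger genes on chromosome 19 that were tested, 163 rose and 5 fell (median 0.47 in log2 units), and of 200 other zinc finger genes elsewhere 123 rose and 23 fell, with a median of 0.31, beside 50.1% rises and 25.6% falls among all tested genes. After median-ratio scaling 135 of those on chromosome 19 rose and 14 fell, and 87 of those elsewhere rose and 45 fell, with medians of 0.30 and 0.14, beside 0.26 for the members. After quantile normalization the counts were 127 and 18 on chromosome 19 and 86 and 48 elsewhere. Of 15 genes with a SCAN domain that were not on the list of members, 7 were tested, all of which are also counted among the zinc finger genes above. Of these 2 rose (ZSCAN18 by 0.54 and ZNF18 by 0.41) and 0 fell, with a median of 0.094 that turned to -0.070 under median-ratio scaling. ZNF449, at 2.98 and 2.76 TPM in sgNS against 2.29 and 2.28 TPM in METTL16 KO, was the lowest of them at -0.32 and did not pass, but under median-ratio scaling it was at -0.47 and passed downward, and 1 of the 7 fell under either scaling.

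**Figure D5:**
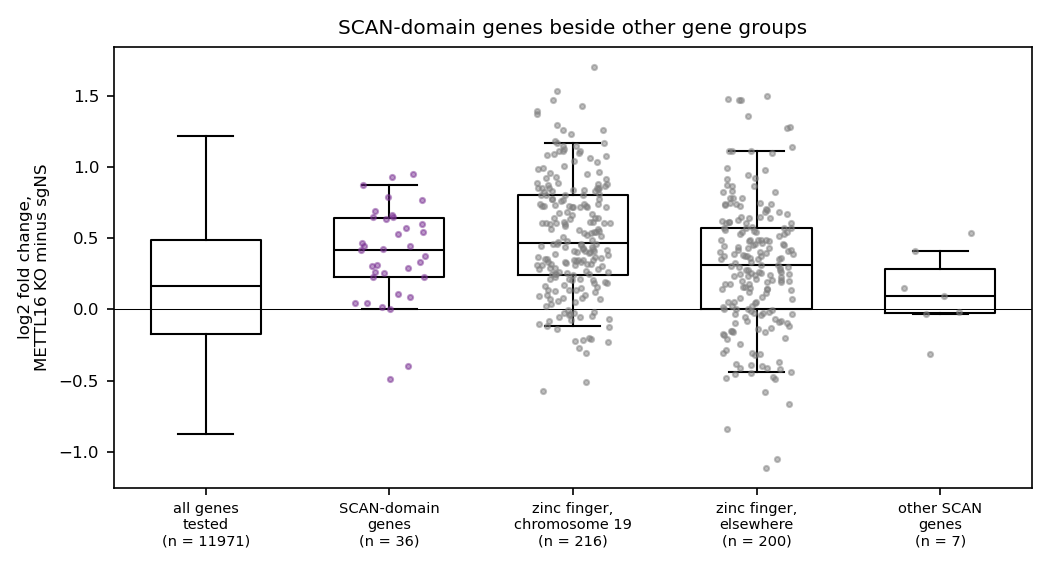
Log2 fold change (METTL16 KO minus sgNS) of tested genes in 5 groups, with boxes for the median and quartiles, whiskers for the 5th and 95th percentiles and points for single genes (not drawn for all genes tested). The medians are 0.16 for all genes, 0.42 for the SCAN-domain genes, 0.47 and 0.31 for other zinc finger genes on and off chromosome 19 and 0.094 for 7 other SCAN genes, which are also drawn among the zinc finger genes and whose median turns negative after median-ratio scaling.

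The co-repressor machinery that many KRAB domains recruit had rises and falls, with a median below that of all tested genes. Of 16 tested genes 4 rose and 3 fell (median 0.049 in log2 units). Of all tested genes 50.1% rose and 25.6% fell, with a median of 0.16. MORC3, SETDB1 (the H3K9 methyltransferase of the complex) and PPHLN1 rose by 0.45, 0.29 and 0.31. UHRF1, CBX3 (a heterochromatin protein) and TRIM28 (the scaffold) had log2 fold changes of -0.65, -0.28 and -0.16 and fell. TRIM28 was at 375 and 356 TPM in sgNS against 333 and 321 TPM in METTL16 KO. Under median-ratio scaling 2 of the 16 rose and 8 fell (median -0.12), beside 36.4% and 36.5% of all tested genes. Under quantile normalization 2 rose and 6 fell, beside 36.9% and 35.5%.

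Genes that are reported as targets of members gave rises and falls. The list was written from general knowledge, 12 of its genes were tested, and 8 rose and 3 fell (median 0.36 in log2 units). Of all tested genes 50.1% rose and 25.6% fell, with a median of 0.16. APOA1 and APOC3, lipoprotein genes reported under ZNF202, rose by 0.80 and 0.56. APOA1 was at 1278 and 1206 TPM in sgNS against 2141 and 2189 TPM in METTL16 KO, while ABCA1, also reported under ZNF202, was at 66.3 and 63.0 TPM and then at 70.1 and 67.1 TPM and did not pass. Of the autophagy genes reported under ZKSCAN3, ZFYVE1, MAP1LC3B and WIPI2 rose by 0.64, 0.41 and 0.37 and ULK1 fell, at 21.2 and 18.1 TPM in sgNS against 13.6 and 14.5 TPM in METTL16 KO. VEGFA, reported under ZNF24, rose from 59.6 and 60.4 TPM to 77.2 and 77.3 TPM. TGFB1 fell, with a log2 fold change of -0.49. SCARF1, reported under ZNF444, was below the minimum at 0.02 TPM in both sgNS libraries and 0 in both METTL16 KO libraries. Neither binding nor protein was measured in these libraries.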

How the data were processed

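RNA-seq of 2 sgNS and 2 METTL16 KO libraries of Huh7 cells was used. Per the study's methods, the authors used Cutadapt for trimming, STAR for alignment to GRCh38 and RSEM for gene values; tool versions and annotation are not given in the sources used here. The deposited values are called RPKM in the methods, but each library summed to 1000000, so they were treated as TPM. Columns were matched to samples by name. No sample was left out.

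Genes with a mean of at least 1 TPM were tested on log2(TPM + 0.1), a scale that understates the change of low genes, with limma 3.58.1 in R 4.3.3 (trend, group as the term) and Benjamini-Hochberg adjustment. The model was tested on simulated data first. Tables and figures were made with Python 3.11.15, numpy 2.4.6, pandas 2.3.3, blastn 2.17.0 (alignments of at least 101 bases at 98% identity) and matplotlib 3.10.9. Positions were from GENCODE 44, for 18585 symbols, with neighbours taken up to 0.5 Mb beyond a group.

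The members and gene lists were chosen with earlier results of these data known. Genes with a KRAB domain were those with a ZKSCAN symbol or synonym in RefSeq. Values per library were given for METTL16, members past the fold rule, the 6 largest changes in each direction, the highest and lowest levels, SCAND1, PGBD1 and members with overlapping groups or calls that scaling changed, plus up to 3 genes per direction of other lists, of which 1 is not reported here; more members were named where space allowed. Alternatives were pseudocounts of 1 and 0.01, no filter, a minimum mean of 5 TPM, median-ratio scaling, quantile normalization, a replicate block, limma without trend, an unmoderated linear model, a 1.5-fold threshold and leaving out each library.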

Additional observations from a re-analysis of the deposited data

How the results depend on the processing

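The design had 2 libraries per group, 1 clone and a number of METTL16 guides that the sample titles do not give. Without read counts neither depth nor counting error could be given, and small differences at 1 to 3 TPM were not resolved. The count of members that rose stayed within 1.5 times of 24 under every alternative run. The count that fell went from 1 to 3 under median-ratio scaling and under quantile normalization and to 0 with the unmoderated linear model, where 17 members rose. The members' median log2 fold change was 0.26 and 0.21 under the 2 scalings. With a 1.5-fold threshold in place of a log2 fold change of 1, 11 members passed instead of 0. The shares of all tested genes by this threshold and by the unmoderated model are not given here. Neither count is therefore set against a background. Leaving out a library leaves 1 library in its group, which is then assumed to vary like the other group, so gained or lost calls rest on that assumption. Doing so in turn gave 23 to 25 rises, 1 to 2 falls (2 without METTL16 KO replicate 2, where ZSCAN31 passed), and 0 to 1 members past the fold rule, namely ZSCAN16 without sgNS replicate 2 (1.01) and without METTL16 KO replicate 2 (1.08) and ZSCAN32 without METTL16 KO replicate 1 (1.00). The fall of METTL16 kept its call under every alternative run, with log2 fold changes from -0.68 to -0.45.

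Direction reversed under median-ratio scaling for ZSCAN2 (-0.16), ZSCAN30 (-0.12), ZKSCAN2 (-0.079), ZKSCAN7 (-0.14), ZKSCAN8 (-0.12) and ZNF496 (-0.054), and under quantile normalization for ZSCAN2 (-0.17), ZSCAN23 (-0.068), ZSCAN30 (-0.12), ZKSCAN2 (-0.077), ZKSCAN7 (-0.19), ZKSCAN8 (-0.15), ZNF165 (-0.15) and ZNF496 (-0.082). By construction both scalings move the typical gene to near zero. With each library left out in turn the value reversed at least once for 4 members, with ranges of -0.012 to 0.016 for ZSCAN2 (below zero without sgNS replicate 1 and without METTL16 KO replicate 1), -0.097 to 0.13 for ZKSCAN7 (without sgNS replicate 1 and METTL16 KO replicate 2), -0.015 to 0.47 for ZNF397 (without METTL16 KO replicate 2) and -0.067 to 0.29 for ZNF496 (without sgNS replicate 2). The unmoderated model, which has fewer degrees of freedom, lost the calls of 8 members, among them ZSCAN16, ZNF24 and ZNF444. The pseudocounts, the filters on low values and the replicate block changed no call of a member that stayed in the test. With a minimum mean of 5 TPM 29 members stayed, of which 21 rose. ZSCAN20, ZKSCAN4 and ZNF500, which rose in the main test, lay below that minimum.

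Replicates 1 and 2 are numbered alike in both groups. Across genes, the correlation of deviations from the group mean between libraries of equal number was -0.0445, so the numbers were not taken to pair the samples. With the replicate block 24 members rose and 1 fell, as without it, and the median was 0.42.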
